A study of Mus musculus with 64 samples.

Results

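Day was compared with night in microglia of the mouse hippocampus, in the 16 control libraries of a series of 64. The members were chosen by their sample titles and by no measured value: Hippocampus_Day_Ctr0, Hippocampus_Day_Ctr1, Hippocampus_Night_Ctr0 and Hippocampus_Night_Ctr1 hold 4 libraries each, which gives 8 day and 8 night libraries. All came from male mice, 9 to 10 weeks old, of the strain given as C57BL/6 in the labels and as C57BL6/N in the methods, and no allele or agent is named for them. What sets Ctr0 apart from Ctr1 is not said there, nor is what Soci and Cogn stand for in the other hippocampal libraries. The labels also do not say that replicates are separate animals, so p-values measure only the spread between these libraries. The cells were freed from cold tissue by mechanical dissociation and held on magnetic beads against CD11b, a surface protein that microglia share with border macrophages and other myeloid cells of the blood.

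The light cycle was reversed. According to the methods, the animals were in darkness through the laboratory daytime, and microglia were collected at zeitgeber time 4 h, in the light phase, and 16 h, in the dark phase. The labels do not say what the words Day and Night refer to. Read as clock time, Day is the dark phase, in which mice are active, and Night is the light phase, in which they mostly rest. The per-library table of circular RNAs that accompanies the study uses the same words, and set beside its text on the light phase it gives the same reading. The words Day and Night are kept here as labels, with Day taken as the dark phase.

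Microglia are the resident macrophages of the brain, and like most cells they hold a circadian clock. In that clock the activators ARNTL and CLOCK switch on the Per and Cry genes, whose proteins then repress the activators. The same pair switches on Nr1d1, which encodes the nuclear receptor REV-ERB alpha, and this receptor in turn represses Arntl. In tissues of nocturnal rodents Nr1d1 RNA peaks in the light phase and Per2 RNA near its end or in early darkness. Output factors such as DBP, TEF and HLF carry the rhythm to other genes, and glucocorticoid hormone and body temperature, both higher around the active phase, add rhythms of their own.

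Total counts per library ran from 12.5 to 29.8 M (mega). The day libraries averaged 16 ± 2.49 M and the night libraries 19.8 ± 4.75 M (SD, n = 8; exact permutation test, 2-sided, p = 0.0541). The long RNAs Gm26917 and Gm42418 and the gene Gm23935, which collect ribosomal RNA reads, took 49.9% ± 8.82 of the day counts and 47.6% ± 5.13 of the night counts (SD, n = 8; exact permutation test, p = 0.524). Gm23935 alone took 2.62% to 3.09% in Day Ctr0 replicate 4, Night Ctr0 replicate 4 and Night Ctr1 replicate 4, 2.82% in Day Ctr1 replicate 1, and at most 1.15% in the other libraries, so that in Day Ctr1 the high share stands in replicate 1 and not in replicate 4, where it was 0.0998%. Those libraries are of the same group, and an exchange of their numbers would leave the day-night comparison as it is. Such an exchange would alter the checks that use replicate numbers, which were run with the numbers as given. The mitochondrial ribosomal RNA mt-Rnr2 took 1.35% ± 0.247 of the counts in day and 3.43% ± 1.06 in night (SD, n = 8; exact permutation test, p = 0.000155), with no overlap between 1.09% to 1.71% and 1.89% to 4.94%. A floor of 3 counts in a library corresponded to between 0.104 and 0.253 counts-per-million (CPM, scaled by TMM), and floors cover counting error only.

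All 22 microglial identity genes had reads in each of the 16 libraries. Their summed level was 18219 to 24147 CPM in day and 15290 to 20477 CPM in night. Of 14 markers of T, B and NK cells, 12 fell below the count filter. Markers of other cell types differed between the phases and are described after the clock.

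Of 16034 genes tested, 4394 passed an adjusted p of 0.05 in the quasi-likelihood test of edgeR, which is 27.4%. Day was higher for 1805 genes (11.3%) and lower for 2589 (16.1%), and 6262 genes had an unadjusted p under 0.05. The counts given below for each gene list are to be read against these shares. The median log2 change of day relative to night over the tested genes was -0.01. In 344 genes (2.15%) the lowest day library lay above the highest night library, and in 300 genes (1.87%) the order was the opposite. The first principal component of log2 CPM, with 37.3% of the variance, put the 8 day libraries (11.86 to 52.46) on one side and the 8 night libraries (-53.35 to -5.492) on the other. With library totals alone as the scaling, 2339 genes passed, of which 7.78% were higher in day, against 41.1% with TMM. In numbers of genes these were 182 higher and 2157 lower, so the higher calls depended far more on the scaling than the lower ones.

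**Figure D1:**
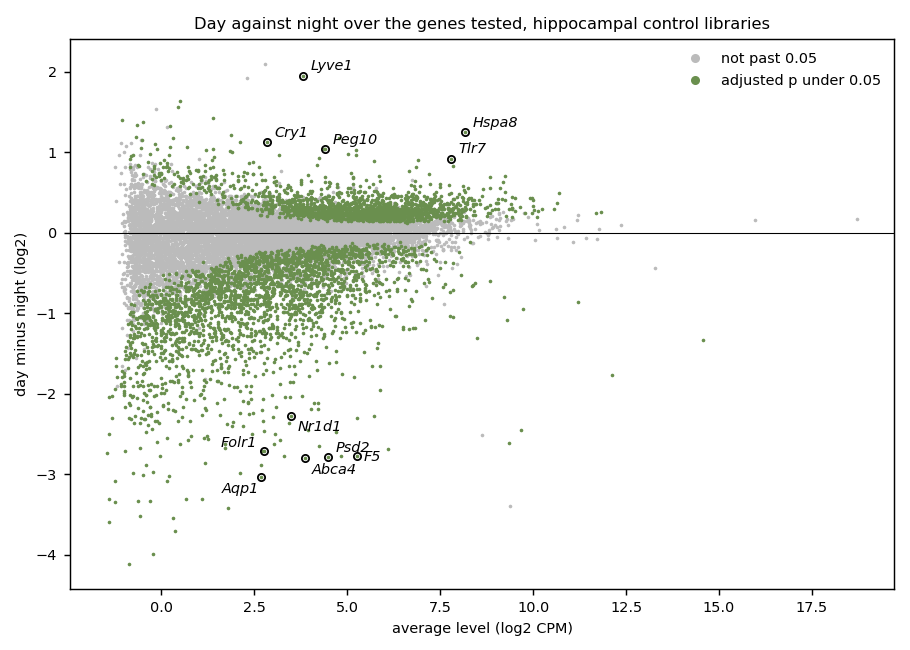
Log2 change of day relative to night (vertical axis) against average level in log2 CPM (horizontal axis) for each of the 16034 genes tested in the 16 hippocampal control libraries, with green points past an adjusted p of 0.05 and open circles on named genes. Lyve1 (1.95), Hspa8 (1.25), Cry1 (1.12) and Peg10 (1.04) stand above the cloud, and Nr1d1 (-2.28), Aqp1 (-3.03) and other genes of the choroid plexus stand below it.

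The 10 largest rises among protein-coding genes that averaged 2 or more in log2 CPM and moved alike in Ctr0 and Ctr1 were Lyve1 (log2 1.95), Hspa8 (1.25), Cd163 (1.17), Cd209a (1.13), Cry1 (1.12), Peg10 (1.04), Hsph1 (1.04), F13a1 (1.03), Sult1a1 (0.98) and Tsc22d3 (0.96). They include 3 markers of border macrophages, 2 chaperone genes, a clock repressor and 2 genes of the glucocorticoid list. The 10 largest falls were Aqp1 (-3.03), Epn3 (-2.99), Drc7 (-2.88), Abca4 (-2.80), Psd2 (-2.79), Col9a3 (-2.78), Slc4a5 (-2.77), F5 (-2.77), Folr1 (-2.71) and Lbp (-2.71). Aqp1, Slc4a5 and Folr1 are on the choroid plexus list and Drc7 is on the list of ependymal cilia. Among the falls only Psd2 had day and night ranges that did not overlap, at 3.66 to 6.73 CPM in day and 9.97 to 64.8 CPM in night.

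The clock itself differed between the phases. Its sharpest gene was Nr1d1 (chromosome 11, 98767932 to 98775333, minus strand, GRCm38), which had a lowest, median and highest level of 1.74, 3.69 and 5.56 CPM in day and 10.3, 17.9 and 27.9 CPM in night. Every night library lay above every day library. The log2 change was -2.28 ± 0.22 (SE; edgeR, adjusted p = 1.82e-05), with -2.55 in Ctr0 and -2.01 in Ctr1. Exons of Thra overlap Nr1d1 on the other strand, and a comparison of genes nested in introns showed that counting used strand.

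Cry1, Per2 and Per3, which encode repressors, were higher in day. Cry1 (chromosome 10, 85131700 to 85185064, minus strand) had 8.12, 9.81 and 12.4 CPM in day and 3.83, 4.18 and 7.07 CPM in night. The ranges did not overlap, although 1 night library, Ctr1 replicate 3, stood well above the other night values of 3.83 to 4.31 CPM. Its log2 change was 1.12 ± 0.13 (adjusted p = 4.83e-05), at 1.44 in Ctr0 and 0.81 in Ctr1. Per3 (chromosome 4, 151003652 to 151044665, minus strand) had 41.4, 54.6 and 75.8 CPM in day and 29.0, 34.7 and 40.8 CPM in night, a log2 change of 0.66 ± 0.08 (adjusted p = 7.12e-05). Its ranges came close without touching. Per2 (chromosome 1, 91415982 to 91459324, minus strand) had 14.5, 27.9 and 33.0 CPM in day and 9.55, 11.8 and 19.8 CPM in night, and its log2 change was 0.93 ± 0.17 (adjusted p = 0.00088). Some low day values of Per2 lay within the night range.

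The other 3 repressors did not pass. Per1, an early-responding partner of Per2, had 21.4, 40.2 and 73.2 CPM in day and 21.7, 30.3 and 66.2 CPM in night, and a log2 change of 0.34 ± 0.23 (adjusted p = 0.284). Cry2 had a median of 16.9 CPM in day and 17.5 CPM in night (log2 -0.02 ± 0.10, adjusted p = 0.92). Ciart, a further repressor of the activator pair, had medians of 0.70 and 0.665 CPM (log2 -0.01 ± 0.24, adjusted p = 0.977). The signs of Cry2 and Ciart turned under several alternatives, so no direction is given for either.

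**Figure D2:**
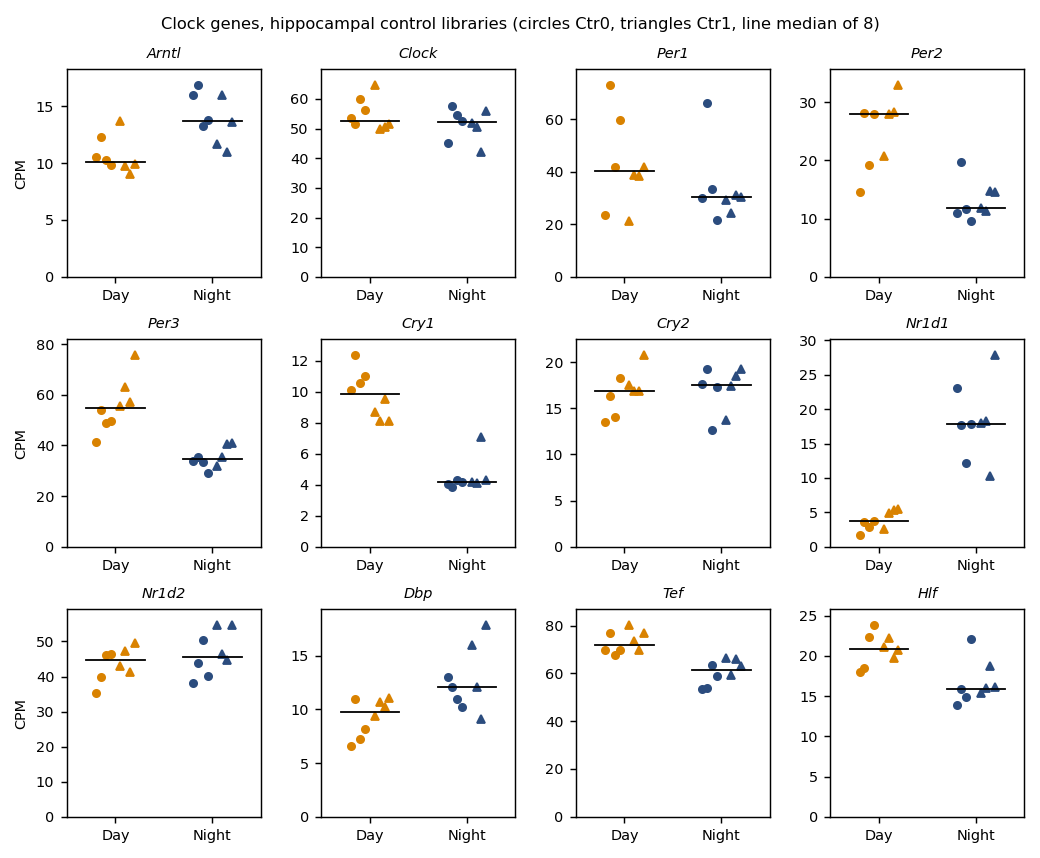
Level in CPM (vertical axis from 0) of 12 clock genes in each day and night library, with circles for Ctr0, triangles for Ctr1 and a line at the median of 8. Nr1d1 lies at 1.74 to 5.56 CPM in day and 10.3 to 27.9 CPM in night, Cry1 and Per3 are higher in every day library, and Clock, Cry2 and Nr1d2 overlap.

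Among the activators, Arntl was lower in day, at 9.04, 10.1 and 13.7 CPM against 11.0, 13.7 and 16.9 CPM in night. The ranges overlapped (log2 -0.39 ± 0.10, adjusted p = 0.01). Clock, its partner, had medians of 52.6 and 52.1 CPM (log2 0.10 ± 0.07, adjusted p = 0.342). Npas2, which can stand in for Clock, had a log2 change of -0.40 ± 0.27 (adjusted p = 0.285), and Arntl2, the paralogue of Arntl, one of -0.60 ± 0.26 (adjusted p = 0.0963). Neither passed the threshold.

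The receptors of the REV-ERB and ROR families act on Arntl from opposite sides, the former as repressors and the latter as activators. Of 5 tested, 2 were lower in day. Beside Nr1d1 this was Rorb, with 1.51, 1.59 and 2.30 CPM in day and 1.57, 3.79 and 11.6 CPM in night (log2 -1.33 ± 0.33, adjusted p = 0.00758). Rorb is also a gene of neurons, whose markers were higher in night libraries too, and Night Ctr0 replicate 4 held both its highest value and the highest astrocyte marker sum. Whether other cells had a part in the change of Rorb was not tested. Nr1d2, the close paralogue of Nr1d1, had medians of 44.6 and 45.5 CPM (log2 -0.09 ± 0.08, adjusted p = 0.398). Rora, a ROR activator, did not pass (log2 -0.22 ± 0.12, adjusted p = 0.171).

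The output factors were split. Tef, a PAR bZIP activator, had 67.5, 71.8 and 80.4 CPM in day and 53.6, 61.2 and 66.4 CPM in night, with ranges that did not overlap (log2 0.27 ± 0.05, adjusted p = 0.00114). Hlf, a factor of the same family, was higher in day by a log2 of 0.32 ± 0.09 (adjusted p = 0.0165). Dbp, the founding member of that family, was lower, at 6.57, 9.80 and 11.1 CPM in day and 9.13, 12.1 and 17.9 CPM in night (log2 -0.45 ± 0.13, adjusted p = 0.0166). The PAR bZIP genes therefore did not share a direction. The E-box repressors Bhlhe41 (log2 0.26 ± 0.07, adjusted p = 0.00734) and Bhlhe40 (log2 -0.66 ± 0.12, adjusted p = 0.00118) also moved in opposite directions, and Nfil3, the repressor that competes with the PAR bZIP factors, did not pass (log2 0.35 ± 0.20, adjusted p = 0.199). In the calls with library totals alone, none of the 3 rises of this list remained.

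Over the 21 genes of these 4 lists, 6 were higher and 5 lower in day. The clock protein turnover list, which holds kinases, ubiquitin ligases and related regulators, had 1 higher and 5 lower of 13. Among all genes tested 11.3% were higher and 16.1% lower. Btrc, part of the ligase that marks PER proteins for destruction, had 12.8 to 16.8 CPM in day and 17.0 to 19.7 CPM in night, so that the ranges did not overlap (log2 -0.30 ± 0.06, adjusted p = 0.00234). Csnk1e, a kinase that phosphorylates PER proteins, was the 1 higher gene (log2 0.15 ± 0.05, adjusted p = 0.0344), and 9 of 16 omissions of a single library lost that call.

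Upstream sequence is shown for 4 genes, because it holds the motifs through which clock and heat shock factors are known to act and lets moving genes be set beside Ciart, which did not pass. Motifs were searched on both strands in windows of 300 bases around RefSeq starts (GRCm38.p6): the E-box CACGTG, the D-box TTATGTAA, the REV-ERB/ROR element TAGGTCA and the heat shock element GAANNTTC. The stretches printed run 5′ to 3′ in the direction of the gene, from 250 to 31 bases before the start, and capitals mark the motifs. They lie at chr10:85185085-85185304 for Cry1, between genes, at chr4:151044696-151044915 for Per3, inside an intron of Camta1, at chr3:95882259-95882478 for Ciart, inside an intron of C920021L13Rik, and at chr17:34959269-34959488 for Hspa1b, between genes. All 4 genes are on the minus strand.
Cry1: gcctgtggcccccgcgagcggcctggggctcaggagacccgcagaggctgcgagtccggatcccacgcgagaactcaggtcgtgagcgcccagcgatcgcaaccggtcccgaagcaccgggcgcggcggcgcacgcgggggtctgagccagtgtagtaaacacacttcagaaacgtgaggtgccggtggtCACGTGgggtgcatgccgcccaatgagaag
Per3: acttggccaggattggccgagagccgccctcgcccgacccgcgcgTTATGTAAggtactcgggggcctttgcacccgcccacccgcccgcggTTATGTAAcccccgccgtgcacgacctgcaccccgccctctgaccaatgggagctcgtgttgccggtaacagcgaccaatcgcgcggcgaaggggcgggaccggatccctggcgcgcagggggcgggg
Ciart: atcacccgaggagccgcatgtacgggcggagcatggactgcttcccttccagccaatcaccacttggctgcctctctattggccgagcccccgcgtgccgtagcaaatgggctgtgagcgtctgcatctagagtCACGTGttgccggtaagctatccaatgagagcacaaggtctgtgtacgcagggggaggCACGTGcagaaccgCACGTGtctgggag
Hspa1b: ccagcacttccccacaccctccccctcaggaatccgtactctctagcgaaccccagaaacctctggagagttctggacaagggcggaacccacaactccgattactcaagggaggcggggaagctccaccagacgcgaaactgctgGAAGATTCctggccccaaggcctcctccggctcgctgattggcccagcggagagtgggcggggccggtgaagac

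Cry1 holds 1 E-box, Ciart holds 3, and Per3 holds 2 D-boxes. Of the 21 clock genes, 18 matched RefSeq windows, and 5 of these held an E-box, namely Bhlhe41, Ciart, Cry1, Per1 and Tef. Ciart and Per1 among them did not pass the test. An E-box stood in 25% of the 24 clock windows and in 7.15% of all 32851 windows, a D-box in 4.17% and 0.938%, and a REV-ERB/ROR element, found for Arntl and Nfil3, in 8.33% and 2.61%. The windows of Nr1d1, Dbp, Hlf and Cry2 held none of these letters. A match is a description of the sequence only.

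The glucocorticoid response list, which holds the receptor gene Nr3c1 beside genes that the hormone induces, was divided. Of 18 tested, 4 were higher in day and 4 lower, beside 11.3% and 16.1% of all genes tested. Fkbp5, a co-chaperone of the glucocorticoid receptor and one of its best known targets, had 33.6, 74.4 and 94.5 CPM in day and 26.4, 33.7 and 60.3 CPM in night. The day libraries were spread widely and overlapped the night range (log2 0.89 ± 0.21, adjusted p = 0.00482). Tsc22d3, which encodes the anti-inflammatory protein GILZ, had a log2 change of 0.96 ± 0.24 (adjusted p = 0.00782), and Sult1a1, a sulfotransferase, had 33.4 to 67.5 CPM in day and 15.7 to 27.4 CPM in night without overlap (log2 0.98 ± 0.14, adjusted p = 0.000232). The receptor gene Nr3c1 was higher by a log2 of 0.28 ± 0.06 (adjusted p = 0.00384). Against these, the metallothionein genes Mt1 (log2 -1.29 ± 0.19, adjusted p = 0.000293) and Mt2 (log2 -1.39 ± 0.27, adjusted p = 0.00163), Pdk4, a brake on pyruvate use (log2 -1.35 ± 0.23, adjusted p = 0.000586), and Klf9, a further hormone-induced factor (log2 -0.50 ± 0.18, adjusted p = 0.0451), were lower in day, although 10 of 16 single omissions lost the call of Klf9. Metals also induce Mt1 and Mt2, and astrocytes, whose markers were higher in night, express them strongly. Neither was tested as a source of the lower day values.

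Heat shock genes were higher in day and cold-inducible genes lower. Of 13 tested, 9 were higher and 2 lower, with a median log2 change of 0.45. Hspa8 (chromosome 9, 40800984 to 40810087), the constitutive HSC70 chaperone, had 336, 389 and 555 CPM in day and 144, 174 and 192 CPM in night. Hsp90ab1, a constitutive HSP90, had 247, 274 and 406 CPM in day and 154, 166 and 172 CPM in night. In both genes the ranges stood far apart, with log2 changes of 1.25 ± 0.10 (adjusted p = 2.24e-06) and 0.83 ± 0.09 (adjusted p = 2.55e-05). Hsph1, a nucleotide exchange factor for HSC70, had 22.2, 27.5 and 37.1 CPM in day and 11.0, 12.4 and 17.9 CPM in night (log2 1.04 ± 0.12, adjusted p = 3.75e-05), and Dnajb1, an HSP40 co-chaperone, had 22.1 to 32.2 and 14.2 to 18.7 CPM (log2 0.63 ± 0.08, adjusted p = 0.000105). Day Ctr0 replicate 4 held the highest value of Hspa8 and of Hsph1. Snord14 genes lie within Hspa8 on its strand, and their reads may be shared with it.

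The inducible chaperone Hspa1b was low, at 1.35, 1.61 and 3.51 CPM in day and 0.358, 0.649 and 1.01 CPM in night, and its ranges did not overlap (log2 1.64 ± 0.25, adjusted p = 0.000375). Its near-identical neighbour Hspa1a can take up its reads, so the split between them is uncertain. Cirbp (chromosome 10, 80165985 to 80172786), an RNA-binding protein made when cells are cooled, ran against the chaperones with 11.8, 19.0 and 21.3 CPM in day and 25.1, 32 and 41.2 CPM in night. No day library reached the night range (log2 -0.84 ± 0.11, adjusted p = 0.000115). Rbm3, its relative, was lower by a log2 change of -0.29 ± 0.09 (adjusted p = 0.0296), a call that was lost without Night Ctr1 replicate 1 or 2, Night Ctr0 replicate 3 or Day Ctr1 replicate 3. A heat shock element stood in 58.3% of the 12 windows matched for 8 genes of this list and in 7.86% of all windows. These windows are not independent. Those of Hsph1 overlap, Hspd1 and Hspe1 share an element read from opposite strands, and those of Hspa1a and Hspa1b are nearly alike. The windows of Dnajb1 and Cirbp held none of the motifs, and Hspa8 and Hsp90ab1 had no window.

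Genes of innate sensing were mostly higher in day. Of 27 genes of toll-like receptors and the NF-kB pathway, 16 were higher and 1 lower, with a median log2 change of 0.23. Tlr7 (chromosome X, 167304929 to 167330558, minus strand), the receptor for single-stranded RNA, had 262, 286 and 368 CPM in day and 122, 160 and 178 CPM in night. Tlr13, which senses bacterial ribosomal RNA, had 157, 181 and 214 CPM in day and 99.2, 119 and 138 CPM in night. Tlr4, the receptor for endotoxin, had 73.4, 85.9 and 105 CPM in day and 46.1, 60.4 and 68.8 CPM in night. In all 3 genes every day library lay above every night library, and the log2 changes were 0.92 ± 0.08 (adjusted p = 7.79e-06), 0.61 ± 0.08 (adjusted p = 7.27e-05) and 0.55 ± 0.08 (adjusted p = 0.000219). Irak4, the kinase that relays these receptors, changed by 0.40 ± 0.07 (adjusted p = 0.000663), and Nfkb1 by 0.20 ± 0.05 (adjusted p = 0.00437), both without overlap. Relb, of the other NF-kB branch, was the 1 lower gene (log2 -0.54 ± 0.13, adjusted p = 0.0049). With library totals alone, 5 of the 27 were higher and 1 lower. The microglial identity list rose by a similar median log2 change, 0.26, with 12 of 22 genes higher. How much of the rise in innate sensing goes with the share of microglial RNA was not tested.

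The effectors were less uniform. Of 13 cytokine and chemokine genes tested, 2 were higher, Il1a (log2 0.51 ± 0.11, adjusted p = 0.00369) and Il6 (log2 0.55 ± 0.14, adjusted p = 0.00747), and Cxcl10 was lower (log2 -1.36 ± 0.37, adjusted p = 0.0118). Cxcl10 was near the floor of 3 counts, at 0.0732 to 0.407 CPM in day and 0.313 to 1.27 CPM in night, with overlap. Il1b had medians of 0.968 and 0.806 CPM (adjusted p = 0.892) and Tnf of 1.68 and 1.61 CPM (adjusted p = 0.746), and these 2 genes were named after their values were seen. Of 22 interferon-stimulated genes, 1 was higher, Trim30a (log2 0.34 ± 0.06, adjusted p = 0.000575), and 2 were lower, Rsad2 (log2 -0.85 ± 0.20, adjusted p = 0.00505) and Oasl2 (log2 -0.43 ± 0.14, adjusted p = 0.0351), whose call was lost in 10 of 16 single omissions. Both lists had smaller shares past the threshold than the 27.4% of all genes. Complement had 5 higher and 2 lower of 14, and with library totals alone 1 higher and 2 lower. C5ar1, the receptor for C5a, had 34.0 to 48.0 CPM in day and 23.4 to 29.1 CPM in night (log2 0.55 ± 0.07, adjusted p = 0.000116).

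In antigen presentation 6 of 18 genes were higher and 1 was lower, where 11.3% of all genes tested were higher and 16.1% lower. The costimulatory gene Cd80 had 8.93, 9.52 and 11.6 CPM in day and 5.77, 6.43 and 8.20 CPM in night, without overlap (log2 0.59 ± 0.09, adjusted p = 0.000372). Cd86, its partner ligand, changed by 0.34 ± 0.07 (adjusted p = 0.00181). Ciita, the master regulator of MHC class II, changed by 0.72 ± 0.19 (adjusted p = 0.00925) and the class II gene H2-Ab1 by 0.63 ± 0.19 (adjusted p = 0.0226), a call that was lost without Day Ctr1 replicate 3. Border macrophages carry class II as well, and their markers were higher in the same libraries. The part of each cell type in these calls cannot be told apart here.

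**Figure D3:**
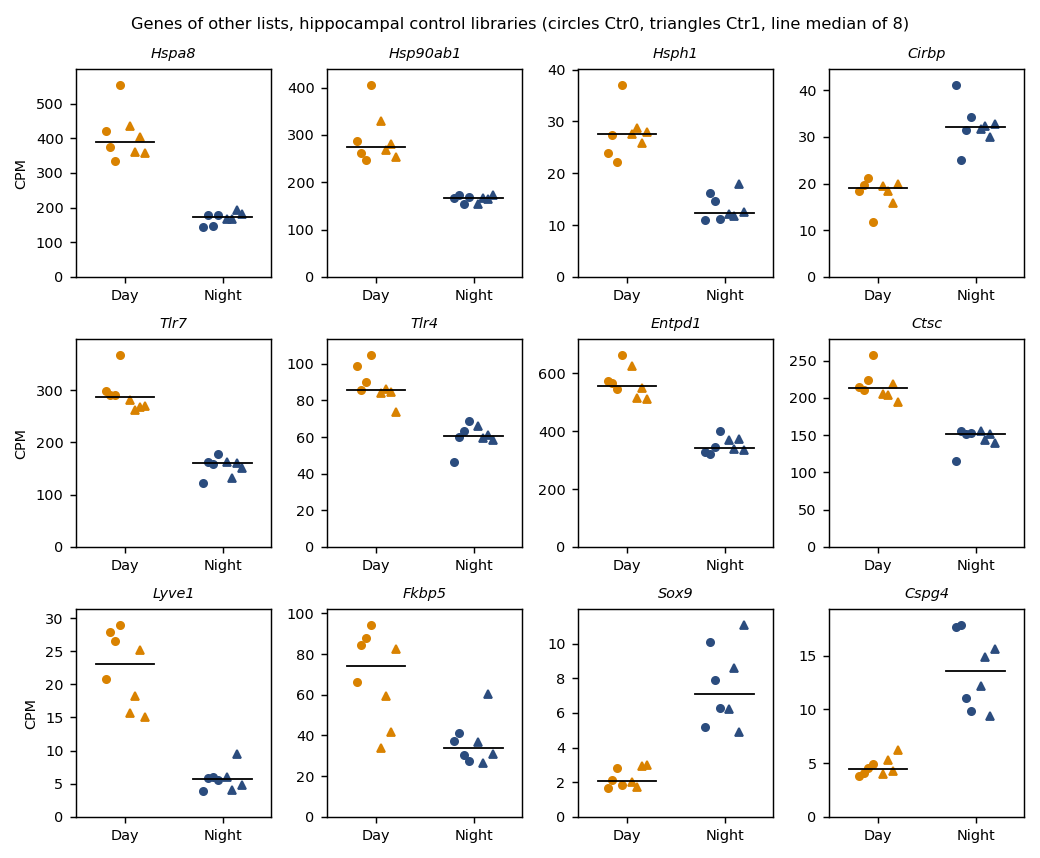
Level in CPM (vertical axis from 0) of 12 genes from the heat shock, toll-like receptor, purinergic, lysosome, border macrophage, glucocorticoid, astrocyte and oligodendrocyte lineage lists in each day and night library, with circles for Ctr0, triangles for Ctr1 and a line at the median of 8. In 11 of the 12 the day and night points do not overlap. Fkbp5, at 33.6 to 94.5 CPM in day and 26.4 to 60.3 CPM in night, is the exception. The 12 genes were picked from those past the threshold, so separated points follow in part from the choice. Over all genes tested, day lay above night without overlap in 2.15% and below it in 1.87%.

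Of 22 identity genes of microglia 12 were higher in day, none was lower and 10 did not pass, with a median log2 change of 0.26. Tmem119, a surface protein used to mark microglia, had 1009, 1080 and 1386 CPM in day and 715, 813 and 957 CPM in night (log2 0.43 ± 0.09, adjusted p = 0.00199). Mertk, a receptor for the uptake of dying cells, had 459, 513 and 554 CPM in day and 378, 397 and 447 CPM in night (log2 0.34 ± 0.06, adjusted p = 0.000743). Both genes separated the phases completely. Mef2c (log2 0.40 ± 0.08, adjusted p = 0.00206) and Selplg (log2 0.41 ± 0.09, adjusted p = 0.00332) overlapped. With library totals alone no identity gene passed in either direction, and the median log2 change was 0.22. In bulk RNA, fewer cells of a type and less RNA per cell cannot be told apart.

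Of 16 purinergic receptors and channels, through which microglia sense nucleotides, 6 were higher and 2 lower, against 2 and 2 with library totals alone. The shares over all genes tested were 11.3% higher and 16.1% lower. Entpd1, the ectonucleotidase CD39, had 510, 557 and 665 CPM in day and 320, 341 and 400 CPM in night. Kcnk6, a potassium channel, had 169, 197 and 233 CPM in day and 124, 141 and 153 CPM in night, and Itpr2, a calcium release channel, had 190, 209 and 247 against 140, 153 and 169 CPM. The phases separated in each, with log2 changes of 0.69 ± 0.07 (adjusted p = 1.82e-05), 0.50 ± 0.06 (adjusted p = 6.97e-05) and 0.45 ± 0.06 (adjusted p = 9.89e-05). The 2 lower genes were Nt5e, the ectonucleotidase CD73 (log2 -2.22 ± 0.50, adjusted p = 0.0042), and the adenosine receptor gene Adora1 (log2 -0.77 ± 0.25, adjusted p = 0.0283), both also made by other brain cells. Day levels of Nt5e were near the floor of 3 counts, with 0 CPM in Ctr1 replicate 1 and 0.438 CPM in Ctr0 replicate 4. Its night levels were 0.104 to 1.86 CPM, so the ranges overlapped. The call of Adora1 was lost without Day Ctr0 replicate 1 or 2 or Night Ctr1 replicate 2 or 3.

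The activated microglia list had 6 lower and 0 higher of 16, where 16.1% of all genes tested were lower and 11.3% higher. Among the lower genes were Spp1, which encodes osteopontin (log2 -1.65 ± 0.41, adjusted p = 0.00734), Fabp5, a fatty acid carrier (log2 -1.47 ± 0.30, adjusted p = 0.00234), Lpl, lipoprotein lipase (log2 -0.86 ± 0.19, adjusted p = 0.00328), and Lgals3, galectin-3 (log2 -0.98 ± 0.28, adjusted p = 0.0149). Their levels were low. Spp1 had 1.13, 1.5 and 2.04 CPM in day and 1.49, 3.58 and 13.1 CPM in night, and Fabp5 had 0.252, 0.458 and 0.792 CPM in day and 0.717, 1.14 and 2.85 CPM in night. Fabp5, Lpl and Spp1 are also made by glial or vascular cells, whose markers were higher in night. The part of those cells in these calls was not tested.

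Lysosomal genes had 9 higher and 3 lower of 30, and with library totals alone 1 higher and 1 lower. Ctsc, cathepsin C, had 194, 213 and 258 CPM in day and 115, 152 and 156 CPM in night, without overlap (log2 0.57 ± 0.07, adjusted p = 6.3e-05), while Gla, alpha-galactosidase, was lower (log2 -0.61 ± 0.15, adjusted p = 0.00619). Autophagy genes were split, with 5 higher and 4 lower of 25, or 0 and 2 with library totals alone. Ulk2, a kinase that starts autophagy, was higher (log2 0.29 ± 0.05, adjusted p = 0.000972), and Map1lc3a, which encodes an LC3 protein of the autophagosome, was lower (log2 -0.71 ± 0.13, adjusted p = 0.00138). Immediate early genes were 3 higher and 3 lower of 19, with Egr1 (log2 0.59 ± 0.15, adjusted p = 0.00759) and Nr4a2 (log2 -0.78 ± 0.21, adjusted p = 0.0113) in opposite directions. Over all genes tested 11.3% were higher and 16.1% lower, so neither the autophagy nor the immediate early list is read as a change. Cell cycle genes were 2 higher and 2 lower of 29, which is less than the background share, and Mki67, a marker of dividing cells, was among the higher (log2 0.73 ± 0.21, adjusted p = 0.0154).

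Metabolic genes past the threshold were mostly lower in day. With each control set tested alone, lower calls in Ctr0 and Ctr1 numbered 0 and 9 for cholesterol, 0 and 10 for glycolysis and 0 and 15 for the respiratory chain, with 2 higher glycolysis calls in Ctr0, while no gene passed for a difference between the sets. With library totals alone, lower calls numbered 8, 9 and 10. In cholesterol synthesis and efflux 16 of 28 genes were lower and 1 was higher, with a median log2 change of -0.35. Scd2, a fatty acid desaturase, had 92.8, 109 and 116 CPM in day and 116, 146 and 273 CPM in night (log2 -0.62 ± 0.14, adjusted p = 0.00394). Srebf1, the regulator of lipid synthesis, had 22.8, 24.8 and 26.6 CPM in day and 26.9, 33.7 and 39.8 CPM in night (log2 -0.46 ± 0.08, adjusted p = 0.000604). The night values of both lay above all day values. Scd1, a desaturase related to Scd2, was lower with overlap (log2 -1.46 ± 0.25, adjusted p = 0.000764). The 1 higher gene was Abca1, the cholesterol exporter, at 482, 608 and 670 CPM in day and 420, 468 and 499 CPM in night (log2 0.37 ± 0.07, adjusted p = 0.00127).

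Glycolysis had 14 lower and 2 higher of 24. Tpi1, triose phosphate isomerase, had 17.0, 18.0 and 23.9 CPM in day and 23.3, 28.0 and 32.9 CPM in night (log2 -0.57 ± 0.09, adjusted p = 0.000387), and Pkm, pyruvate kinase, changed by -0.41 ± 0.07 (adjusted p = 0.000682). Hk2, the first enzyme of the pathway, went against them with 150, 172 and 192 CPM in day and 113, 130 and 144 CPM in night, without overlap (log2 0.42 ± 0.06, adjusted p = 0.000372). Of 37 nuclear genes of the respiratory chain 20 were lower and none higher, with a median log2 change of -0.25, or -0.11 in Ctr0 and -0.38 in Ctr1. Cox4i1, a subunit of cytochrome c oxidase, had 16.8, 21.1 and 24.3 CPM in day and 27.9, 32.2 and 35.8 CPM in night (log2 -0.61 ± 0.08, adjusted p = 0.00017), and no day library reached the night range. The mitochondrial ribosomal RNA mt-Rnr2, which is on no list, was lower in day (log2 -1.33 ± 0.22, adjusted p = 0.000552). The libraries had been depleted of ribosomal RNA, so its remaining reads need not follow its level in the cells. Whether depletion differed between the phases was not tested.

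Of 38 genes of cytosolic ribosomal proteins 9 were lower and none higher, a smaller share past the threshold than the 27.4% of all genes. Its counts varied, with 4 to 16 lower calls when single libraries were left out. The median log2 change was -0.01 in Ctr0 and -0.32 in Ctr1, with 0 and 10 lower calls, and the difference between the sets was not past the threshold in any gene tested. Of 21 antioxidant genes of the NRF2 pathway 8 were lower and 2 higher. Nfe2l2, which encodes NRF2 itself, had 64.8, 85.6 and 91.0 CPM in day and 56.1, 61.4 and 65.5 CPM in night (log2 0.46 ± 0.06, adjusted p = 0.000131). Its targets Srxn1, sulfiredoxin (log2 -0.91 ± 0.12, adjusted p = 0.000115), and Gpx4, a glutathione peroxidase that guards lipids (log2 -0.45 ± 0.07, adjusted p = 0.000285), were lower in every day library than in any night library.

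**Figure D4:**
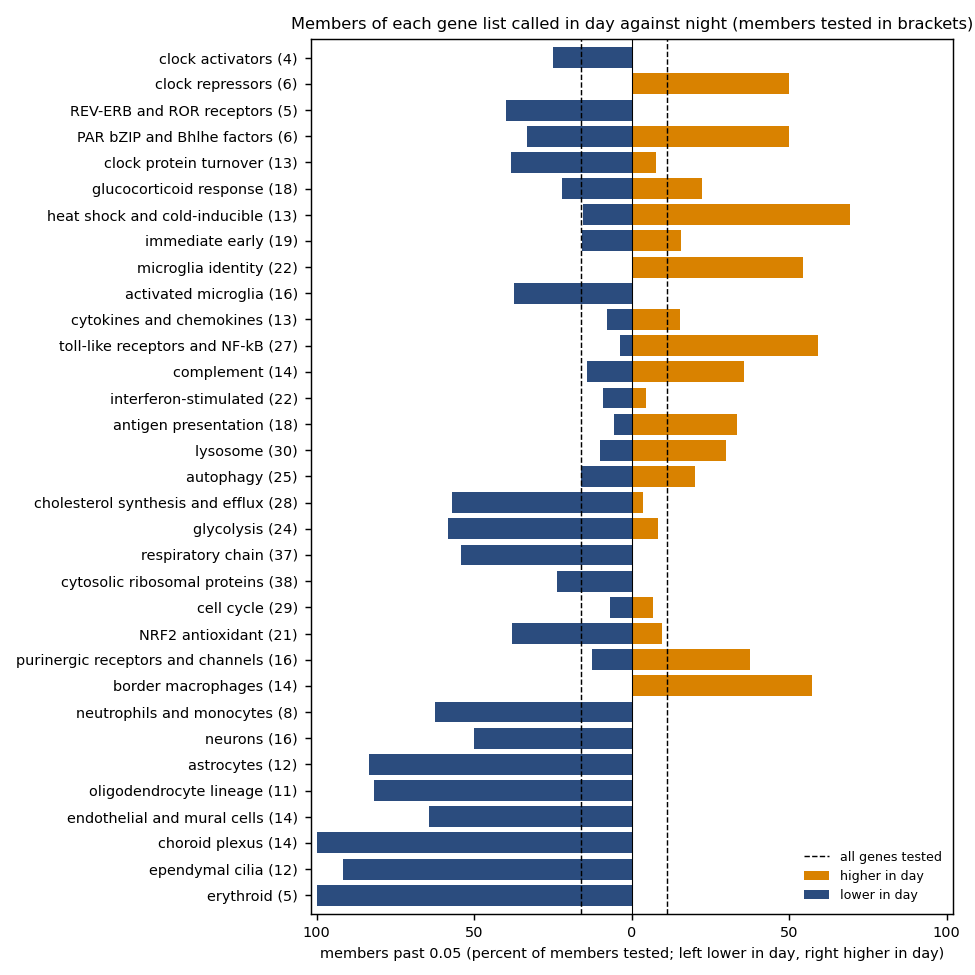
Share of tested members past an adjusted p of 0.05 in each gene list (horizontal axis in percent, to the left lower in day, to the right higher in day), with the number tested in brackets and dashed lines at the shares over all genes tested, 16.1% and 11.3%. Choroid plexus and erythroid lists reach the left edge with all 14 and all 5 members, and heat shock, toll-like receptor and border macrophage lists extend farthest to the right, with 9 of 13, 16 of 27 and 8 of 14.

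Markers of other cell types moved with the phase. Border macrophages, the perivascular and meningeal relatives of microglia, had 8 higher and 0 lower of 14. Lyve1 (chromosome 7, 110850607 to 110863239, minus strand), a hyaluronan receptor that marks part of them, had 15.1, 23.0 and 29.0 CPM in day and 3.94, 5.68 and 9.40 CPM in night. F13a1, a coagulation factor subunit, had 31.7, 52.4 and 63.2 CPM in day and 17.5, 23.9 and 30.5 CPM in night. Neither gene overlapped, with log2 changes of 1.95 ± 0.18 (adjusted p = 1.37e-05) and 1.03 ± 0.14 (adjusted p = 0.000128). The scavenger receptor gene Cd163 changed by 1.17 ± 0.16 (adjusted p = 0.000176), and Cd209f, a C-type lectin gene, by 0.94 ± 0.17 (adjusted p = 0.000984). The summed level of the list was 1210 to 1672 CPM in day and 900 to 1147 CPM in night. These ranges did not overlap, though the gap was narrow beside that of Nr1d1. With the mean level of this list as a covariate 10 genes passed (0.0624%), since the covariate and the phase are nearly the same split of the libraries and cannot be told apart.

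The falls were largest on the list of the choroid plexus, the secretory epithelium of the ventricles next to the hippocampus. All 14 of its markers were lower in day, with a median log2 change of -2.47, the lowest of the 34 lists. Their summed level was 12.4 to 1397 CPM in day, with a median of 436, and 42 to 4825 CPM in night, with a median of 2878. The spread within a phase was wide. Night Ctr0 replicate 4 had 42 CPM, under all but 1 of the day libraries, and Day Ctr0 replicate 3 had 1397 CPM, over 2 of the night libraries. Aqp1, a water channel of this epithelium, had 0, 1.14 and 3.56 CPM in day and 0.243, 12.5 and 19.0 CPM in night (log2 -3.03 ± 0.68, adjusted p = 0.00374). Folr1, the folate receptor, had 0, 1.44 and 3.94 CPM in day and 0.0347, 12.4 and 21.2 CPM in night (log2 -2.71 ± 0.68, adjusted p = 0.00765). Ttr, transthyretin, the most abundant of these RNAs and named after its values were seen, had 0.609 to 702 CPM in day and 6.98 to 2227 CPM in night (adjusted p = 0.0472), and 12 of 16 single omissions lost its call. Within Ctr0 none of the 14 passed, and within Ctr1 all did, while no gene passed for a difference between the sets.

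Ependymal genes of motile cilia had 11 lower of 12, and haemoglobin and other erythroid genes had 5 lower of 5. Hba-a1, an alpha globin, had 1.10, 4.93 and 10.1 CPM in day and 9.68, 16.8 and 51.7 CPM in night (log2 -2.03 ± 0.43, adjusted p = 0.00253). Globin paralogues are nearly identical and their counts are uncertain one by one. Astrocytes had 10 lower of 12, the oligodendrocyte lineage 9 of 11, endothelial and mural cells 9 of 14, neurons 8 of 16, and neutrophils and monocytes 5 of 8, with none higher in any of these lists. For neutrophils and monocytes the summed level ran the other way from these calls, at 236 to 362 CPM in day and 199 to 290 CPM in night.

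Glial markers separated the phases better than those of the choroid plexus. Sox9, a transcription factor that astrocytes keep, had 1.69, 2.06 and 3 CPM in day and 4.89, 7.11 and 11.1 CPM in night (log2 -1.73 ± 0.20, adjusted p = 3.64e-05). Cspg4, the NG2 proteoglycan of oligodendrocyte precursors and pericytes, had 3.84, 4.41 and 6.22 CPM in day and 9.35, 13.5 and 17.9 CPM in night (log2 -1.54 ± 0.15, adjusted p = 1.82e-05). Neither overlapped, and Aldh1l1, Gfap and Mbp were also lower in every day library. Camk2a, a neuronal kinase, had 40.0, 86.9 and 134 CPM in day and 78.2, 157 and 454 CPM in night, with overlap (log2 -1.09 ± 0.31, adjusted p = 0.016). The astrocyte list summed to 336 to 449 CPM in day and 408 to 1778 CPM in night, and the neuronal list to 165 to 571 and 304 to 950 CPM.

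**Figure D5:**
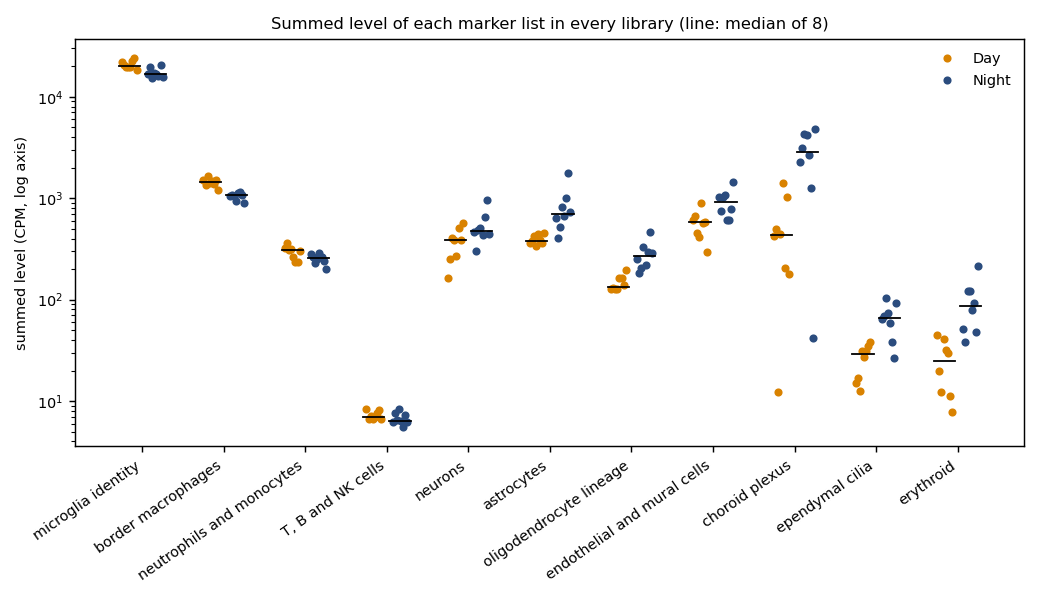
Summed level in CPM (vertical log axis) of 11 marker lists in each library, day and night side by side, with a line at the median of 8. Border macrophages (1210 to 1672 CPM in day, 900 to 1147 CPM in night) separate the phases, and choroid plexus spans 12.4 to 1397 CPM in day and 42 to 4825 CPM in night.

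These marker levels stand beside each list named above. With the mean log2 level of the choroid plexus list as a covariate, 1072 genes (6.69%) were higher and 1594 (9.94%) lower. Cry1, Per2, Per3 and Tef remained higher and Nr1d1, Rorb and Bhlhe40 lower, and the calls of Arntl, Dbp, Hlf and Bhlhe41 were lost. By counts, heat shock had 8 higher and 2 lower of 13, toll-like receptors and NF-kB 12 higher and 1 lower of 27, microglial identity 6 higher of 22 and purinergic genes 5 higher and 1 lower of 16. Cholesterol had 12 lower of 28, glycolysis 10 of 24 and the respiratory chain 10 of 37. The log2 changes of Nr1d1 (-2.31), Cry1 (1.05), Per3 (0.65), Hspa8 (1.27), Tlr7 (0.90) and Lyve1 (1.90) were close to those without the covariate. Leaving out single libraries moved some counts widely, to between 3 and 8 higher in antigen presentation, 4 and 12 higher in lysosomal genes, 9 and 14 lower in choroid plexus, 5 and 8 lower in neurons and 2 and 5 lower in neutrophils and monocytes. The part of astrocytes, neurons, vessels or blood in the metabolic lists was not tested.

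The control sets differed in the number of calls and little in their signs. Tested alone, Ctr0 called 481 genes (3.12%) and Ctr1 1442 (9.37%), with 4 day and 4 night libraries each. The 252 genes called in both were 52.4% of the Ctr0 calls and 17.5% of the Ctr1 calls, and all 252 had the same sign. Of the Ctr0 calls 98.3% had the same sign in Ctr1, and of the Ctr1 calls 96.6% had the same sign in Ctr0. These 2 comparisons share no library. No gene of 16034 passed for a difference in day-night change between the sets (0%; 826 at an unadjusted p under 0.05). On simulated counts this test recovered 139 of 200 differences by a factor of 2, so it can miss real ones. No gene passed for Ctr1 against Ctr0 (0%; 264 at an unadjusted p under 0.05) either, and among clock genes Per3 had the lowest unadjusted p for it (log2 0.27 ± 0.08, edgeR, adjusted p = 1).

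Cortical control libraries with the same labels served to show where the hippocampus differs. Both regions were dissected from the brains, and the labels do not say whether libraries of the same number share an animal. The fit took all 32 libraries as independent. Of 16569 genes, 1 (0.00604%) passed for a difference in day-night change between the regions, and 1448 genes had an unadjusted p under 0.05 for it. Genes that did not pass may still differ. The 1 gene past the threshold was Prdx5 (chromosome 19, 6906697 to 6910106, minus strand), a peroxiredoxin, with 11.7, 14.5 and 17.2 CPM in day and 18.0, 18.6 and 20.3 CPM in night hippocampus, and 12.7 to 14.5 and 12.2 to 15.2 CPM in cortex. Only the hippocampal ranges were apart. The difference in log2 change was -0.48 ± 0.08 (adjusted p = 0.0334), and the call was lost when any replicate number was left out, with the replicate block, without a count filter and with library totals alone. In the same fit Nr1d1 changed by -2.26 in hippocampus and -2.32 in cortex, Cry1 by 1.14 and 1.18, Per2 by 0.96 and 1.30 and Hspa8 by 1.28 and 1.45, and no clock gene passed for a difference. In hippocampal Soci and Cogn libraries, fitted with the hippocampal controls, Prdx5 changed by -0.19 ± 0.08 (edgeR, adjusted p = 0.102). Its ranges there overlapped, at 11.8 to 18.4 CPM in day and 14.8 to 21.3 CPM in night.

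Between controls and the other hippocampal libraries, Soci and Cogn, 1 of 16826 genes passed for a difference in day-night change (0.00594%). This gene was Dbp, and 1271 genes had an unadjusted p under 0.05. In the controls Dbp was lower in day, at 7.42, 10.9 and 12.3 CPM against 9.68, 12.8 and 19.0 CPM in night on the scale of this fit (log2 -0.39 ± 0.12, adjusted p = 0.0141). In Soci and Cogn it was higher in day, at 8.38, 10.3 and 13 CPM against 5.22, 6.45 and 8.49 CPM (log2 0.65 ± 0.12, adjusted p = 0.000325). The day levels were alike in range, and the night levels of the 2 sets did not overlap. The difference in change was -1.04 ± 0.17 (adjusted p = 0.0192), and the call was lost when any replicate number was left out and with library totals alone.

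Of the clock genes, 3 others came close to the threshold in that test. The differences in change were -0.77 ± 0.15 for Hlf (adjusted p = 0.0811), -0.59 ± 0.12 for Nr1d2 (adjusted p = 0.0811) and -0.41 ± 0.09 for Tef (adjusted p = 0.0996), and these 3 did not pass. Mal, a myelin gene (-1.15), Slc2a1, a glucose transporter gene (-1.16), and Ndrg1 (-1.22), which are on no clock list and were named after their values were seen, had the same adjusted p of 0.0811. Hlf had a night median of 16.9 CPM in controls and 10.8 CPM in Soci and Cogn, and Nr1d2 of 48.0 and 31.5 CPM. The day medians were 23.1 and 24.4 CPM for Hlf and 49.0 and 48.5 CPM for Nr1d2. Nr1d1 changed by -2.23 in controls and -1.44 in Soci and Cogn, a difference of -0.80 ± 0.35 (adjusted p = 0.597), and Cry1 by 1.17 and 1.42.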

How the data were processed

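Libraries were made from total RNA after depletion of ribosomal RNA. Per the labels, the authors aligned reads with STAR 2.7.3a to GRCm38.p5 and counted them with featureCounts of Subread 2.0.0. The values deposited are raw counts per gene, not scaled by the authors. Of 49671 genes, 49412 matched GENCODE M21.

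Counts were fitted across all genes with the edgeR 4.0.16 quasi-likelihood F test in R 4.3.3 (TMM, filterByExpr, Ctr0/Ctr1 as a term), with Benjamini-Hochberg adjustment and a threshold of 0.05. A log2 change is day relative to night, and its SE is its size divided by the square root of F. CPM were TMM-scaled, and log2 CPM had a prior count of 2. Library values were compared by exact permutation tests in scipy 1.17.1. Differences in change were contrasts over 32 libraries, or over 16 between Ctr0 and Ctr1. On simulated counts the day-night fit recovered 194 of 200 genes changed by a factor of 2, with 6 others called. The tests of a difference in change recovered fewer of 200. They found 139 between Ctr0 and Ctr1, 174 between the regions and 170 between controls and Soci with Cogn. Only genes above a minimum level were changed, and smaller changes were not simulated.

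Named were all genes of the 4 clock lists, up to 4 genes per direction of lowest p in the other of 34 lists, the 10 largest rises and falls, and up to 5 genes per test of a difference. Some genes of these lists are not reported here. Members and lists were chosen with earlier results of these data known. Il1b, Tnf, Ttr, Hspa1b, Hspa1a, Nfkb1, Scd2, Cd209f and Gfap fell outside this rule and were named after their values were seen. Genes nested in introns had a median of 197.3 counts per kb where they share the host's strand (2286 genes) and 0 where they do not (1591 genes), which shows stranded counting. Over 24 replicate pairs chi-square divided by its degrees of freedom was at least 9.39, so all libraries were kept as separate samples. Same-numbered libraries correlated at -0.426 to 0.559, so replicate numbers were not treated as pairs.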

Additional observations from a re-analysis of the deposited data

Results flagged for a closer look

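In 9 of 110 groups of 8 libraries, 1 library stood apart by Dixon's test at 95%, where chance gives about 1 in 20, or 5.5. In night libraries, Per1 reached 66.2 CPM in Ctr0 replicate 2 against 21.7 to 33.4 CPM in the others, Cry1 reached 7.07 CPM in Ctr1 replicate 3 against 3.83 to 4.31 CPM, and Lyve1 reached 9.4 CPM in the same library against 3.94 to 6.05 CPM. Night Ctr0 replicate 4 held 11.6 CPM of Rorb against 1.57 to 6.09 CPM and an astrocyte marker sum of 1778 CPM against 408 to 1015 CPM. In day libraries, Ctr0 replicate 4 reached 555 CPM of Hspa8 against 336 to 435 CPM and 37.1 CPM of Hsph1 against 22.2 to 28.8 CPM. Nfil3 was at 1.01 CPM in Day Ctr1 replicate 1 against 2.12 to 3.08 CPM, and Abca4 at 10.1 CPM in Day Ctr0 replicate 3 against 0.609 to 4.89 CPM. What sets these libraries apart was not tested.

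The day-night change of Prdx5 differed between hippocampal and cortical controls by a log2 of -0.48, and that of Dbp between hippocampal controls and Soci with Cogn by -1.04, each by a test of the difference itself in edgeR.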

How the results depend on the processing

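Of the 161 named genes past the threshold, 160 kept the call with median-of-ratios size factors, 161 with DESeq2, 157 without a count filter, 158 with the replicate block, 146 to 160 without single libraries, 120 with the choroid plexus score, 114 with library totals alone, 100 in Ctr1 alone, 40 in Ctr0 alone and 3 with the border macrophage score. Calls numbered 4296 with the block, 3638 to 4727 when 1 library was left out, 2339 with library totals alone, 481 in Ctr0 alone, 1442 in Ctr1 alone, 2666 with the choroid plexus score and 10 with the border macrophage score as a covariate, where fewer libraries or an added term were part of the construction. By correlation, replicate numbers did not pair the libraries: 2 of 16 correlated best with their own number. The TMM scaling factors went with the number in part. They were 1.151 to 1.299 in replicate 1 and 0.8913 to 0.947 in replicate 2, but 0.8621 to 1.222 in replicate 3. For the regions, 0 genes passed with library totals alone, without a filter or with the replicate block, and 0 to 2 without 1 replicate. For Soci with Cogn the counts were 0, 4 and 2, and 0 without 1 replicate. The difference in total counts day versus night, -3.75 M, lay between -4.72 and -2.32 without single libraries and passed without Day Ctr1 replicate 2 (-4.41), Night Ctr0 replicate 3 (-4.14) or Night Ctr1 replicate 4. Signs turned for Cry2, at -0.07 to 0.02 without single libraries, 0.07 in Ctr1 alone and 0.17 with the border macrophage score, and for Ciart, at 0.00 with median-of-ratios or DESeq2, 0.01 with the block, -0.13 to 0.11 without single libraries, 0.19 in Ctr1 alone and 0.31 with that score. With that score they also turned for Arntl2 (0.01), Per1 (-0.25), Nfil3 (-0.16) and H2-Ab1 (-0.36). The cause was not tested. Genes near the floor of 3 counts are the least precise.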
